A study of Mus musculus with 47 samples.

Results

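The glutamate and GABA receptor subunits are the proteins through which neurons receive the main excitatory and the main inhibitory transmitter of the brain. Their genes were taken from the count table by symbol: the AMPA genes Gria1 to Gria3, every NMDA (Grin), kainate (Grik) and delta (Grid) gene, the metabotropic glutamate genes (Grm), every GABA-A gene (Gabr) and both GABA-B genes (Gabbr). The rule used no measured value. It found 46 of the 20456 genes in the table, of which 25 encode glutamate receptors (17 ion channels and 8 metabotropic receptors) and 21 encode GABA receptors (19 GABA-A and 2 GABA-B subunits).

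RNA was sequenced from liver, lung and brain of mouse embryos at E18.5 on a C57BL/6 background, without any treatment. The mutants were homozygous throughout the body for 1 of 2 amino acid changes in Daxx, a chaperone that places the histone variant H3.3 on chromatin. Daxx Y130A cannot bind its partner Atrx, and Daxx S226A cannot bind H3.3. The controls of each of the 2 lines were wild-type embryos of the same litters, with 4 libraries a group and 3 in wild-type lung of Y130A litters, which gave 47 libraries in 12 groups from 8 litters and 17 embryos. The alleles were made by CRISPR/Cas9 in C57BL/6N zygotes and the founders were backcrossed to C57BL/6J, so each line descends from edited founders and the change is present in every cell type. Litters were shared between a mutant and its control, and in 1 S226A litter 2 wild-type embryos were used, 1 for lung and the other for liver and brain.

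Ionotropic glutamate receptors open a cation channel: AMPA receptors carry the fast excitatory current, NMDA receptors pass calcium when transmitter and depolarisation coincide, and kainate receptors tune transmitter release and excitability. GABA-A receptors are chloride channels built mostly from alpha, beta and gamma subunits, and in the fetal brain Gabra3 and Gabra5 belong to the early alpha subunits. Metabotropic glutamate receptors and GABA-B receptors signal through G proteins, and GABA-B receptors need both Gabbr1, which binds GABA, and Gabbr2, which couples to the G protein.

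Library totals ran from 15722147 to 26190403 counts in the S226A litters and from 36351738 to 54885020 counts in the Y130A litters, so the 2 sets differed in depth. The tissue labels were matched by marker genes: 10 neuronal genes summed to between 6560 and 7930 CPM (a gene's reads over the normalised library size in megareads) in brain, 32.2 to 50.6 CPM in lung and 11.8 to 27.6 CPM in liver. Lung libraries also held 129 to 1140 CPM of 4 heart muscle genes. Among the 16 livers, 2 stood apart by 5 squamous epithelium genes such as Krt5: replicate 2 of the wild-type livers of S226A litters (123 CPM in sum) and replicate 1 of the Y130A livers (85.3 CPM), against at most 3.02 CPM in the other 14. Results that rest on those libraries are given with and without them.

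The ion channel members of the glutamate family share a stretch of the third membrane helix that forms the gate of the pore. The 27 coding bases of this stretch are shown because they tell how far genes that share a function, and might share reads, differ at their most conserved place. Each is written 5′ to 3′ on the coding strand of GRCm38, with the bases that differ from Gria2 in capitals.
Gria2: tcctacacggctaacttagctgccttc
Gria1: tcAtacacAgcCaacCtGgctgccttc
Gria3: tcctacacTgcAaacCtTgctgcTttc
Grik2: tcGtaTacCgctaacCtagcCgccttT
Grin1: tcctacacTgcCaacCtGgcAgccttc
Grid1: tcctacacAgcCaacCtGgcCgcTttc

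These stretches lie in coding exons at chr3:80702569-80702595 (minus strand, Gria2), chr11:57283571-57283597 (plus, Gria1), chrX:41620858-41620884 (plus, Gria3), chr10:49240690-49240716 (minus, Grik2), chr2:25297199-25297225 (minus, Grin1) and chr14:35452341-35452367 (plus, Grid1). The stretch was found in 15 of the 17 ionotropic genes, all but Grin3a and Grin3b, and the other genes differed from Gria2 in 3 to 8 of the 27 bases. Over all 1035 pairs of members the longest run of identical coding bases had a median of 12 bases. Only 1 pair, the neighbouring rho genes Gabrr1 and Gabrr2, shared a run of 50 bases or more, of 81 bases. Gabra4 and Gabrb1 overlap at their ends on opposite strands, and the strand setting of the counting is not given in the sources used here, so reads in that overlap could have been counted for either gene.

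Brain carried nearly all of the receptor transcripts. The 46 genes summed to between 3600 and 4426 CPM in the 16 brain libraries, between 118 and 236 CPM in the 15 lung libraries and between 42.3 and 80.9 CPM in the 16 liver libraries, so the ranges of the 3 tissues did not overlap. In brain 39 members had more than 3 reads in every library and 36 averaged over 5 CPM. In lung 18 and in liver 6 members had more than 3 reads in every library. Those 6 in liver were Gria3, Grin2c, Grik5, Gabra3, Gabbr1 and Gabbr2.

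**Figure D1:**
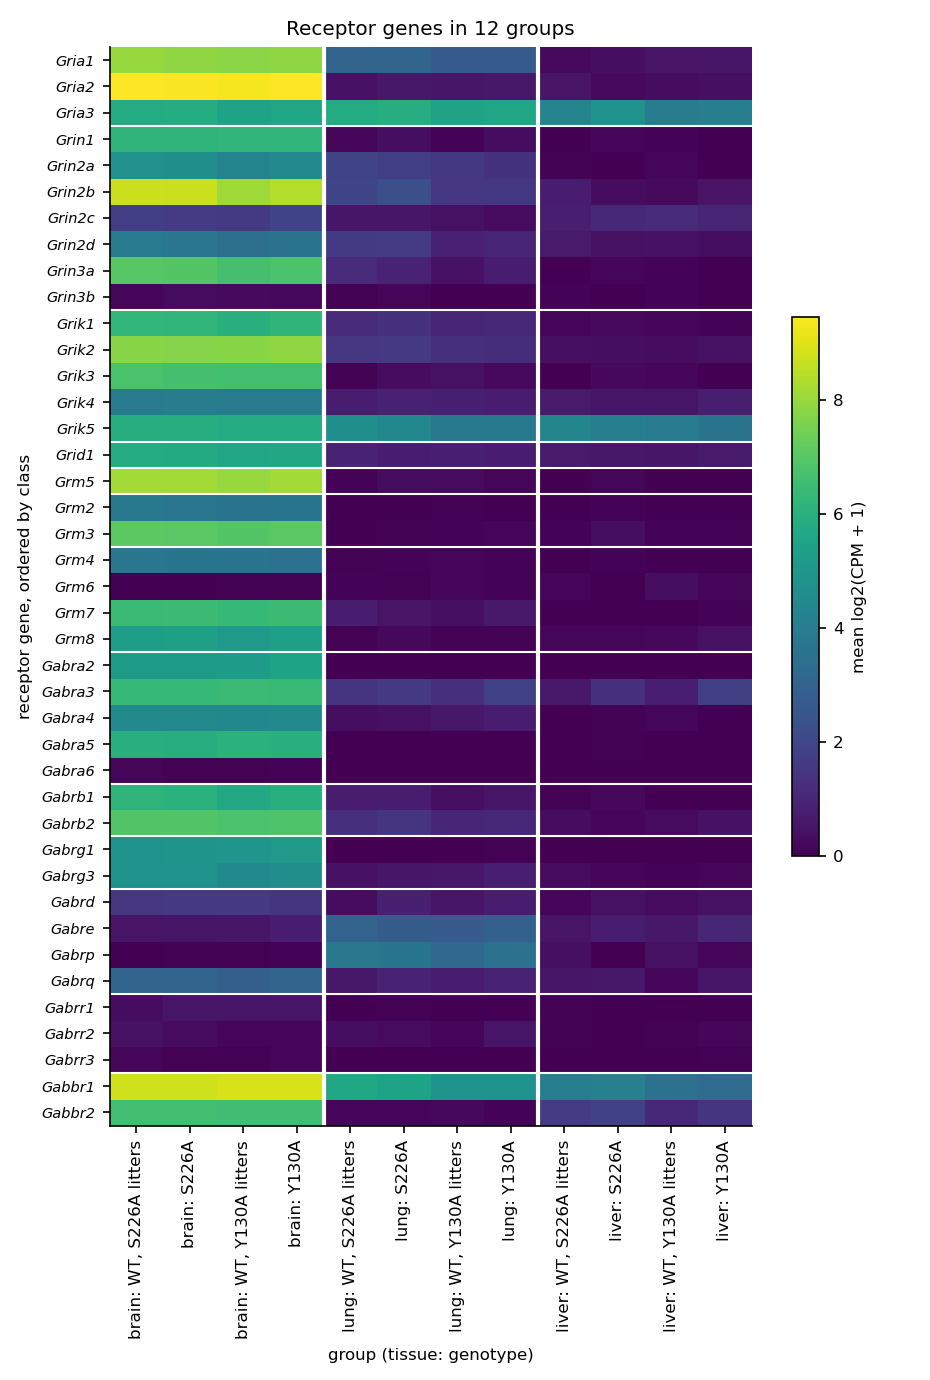
Mean log2(CPM + 1) of each of 41 receptor genes (rows, ordered by class, classes parted by thin lines) in the 12 groups (columns, by tissue and genotype). The 4 brain columns are alike and bright for most rows, and outside brain only Gria3, Grik5 and Gabbr1 stay bright in both lung and liver, with Gabrp, Gabre and Gria1 at 5.48 to 12.9 CPM in lung by group mean.

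Levels of different genes are compared below per kilobase of merged exons. Over the 16 brains the highest member was Gabbr1 at 58.9 ± 3.64 CPM per kb (SD, n = 16), followed by Gria2 at 43.6 ± 2.54, Grm3 at 42.7 ± 3.33 and Gria1 at 39.8 ± 2.74 CPM per kb. The last 3 had overlapping ranges. In CPM, which is not corrected for length, single libraries held 404 to 498 CPM of Gabbr1 and 560 to 739 CPM of Gria2.

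Among the AMPA genes Gria2, whose subunit makes the channel impermeable to calcium once its RNA is edited, exceeded Gria1 in 15 of 16 brains. Gria3 was far lower, at 5.17 ± 0.675 CPM per kb. With Gria4 added, for comparison only, Gria2 made up 37.7% of AMPA transcripts per length, Gria1 34.4%, Gria4 23.5% and Gria3 4.46%.

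Among the NMDA genes Grin2b led at 14.7 ± 3.03 CPM per kb, Grin3a followed at 9.32 ± 1.02 and Grin1, the subunit that every NMDA receptor needs, stood at 7.44 ± 0.601 CPM per kb. Of the GluN2 genes, which set the channel's kinetics, Grin2b held 80.3% ± 1.94 (SD, n = 16) of the transcripts per length, Grin2d 9.97% ± 1.21, Grin2a 7.07% ± 0.476 and Grin2c 2.68% ± 0.723. Grin2b was above the other GluN2 genes in all 16 brains, and Grin3b was near the limit of detection at 0.051 ± 0.027 CPM per kb. The order of Grin2b and Grin1 depends on the length used, since Grin1 led the NMDA class when the longest coding transcript replaced merged exons.

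Grik2 led the kainate genes at 16.9 ± 1.05 CPM per kb and Grik4 was lowest at 2.33 ± 0.128, while Grik1, Grik3 and Grik5 lay between 10.7 and 11.2 CPM per kb with overlapping ranges. Of the delta genes, orphan relatives that bind cerebellins at the synapse, Grid1 stood at 8.63 ± 0.665 CPM per kb. Among the metabotropic genes Grm5 of group I stood at 27.1 ± 1.89 CPM per kb, Grm3 (42.7 ± 3.33) stood above Grm2 (2.47 ± 0.234) in group II, and Grm7 (14.6 ± 0.991) above Grm8 (3.85 ± 0.393) and Grm4 (1.93 ± 0.200) in group III. The ranges within groups II and III did not overlap. Grm6, the receptor of retinal bipolar cells, was nearly absent at 0.00276 ± 0.00595 CPM per kb.

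Gabra3 and Gabra5 led the alpha genes together, at 21.11 ± 1.44 and 20.99 ± 2.21 CPM per kb, and each was above the other in 8 of 16 brains. Gabra2 stood at 4.99 ± 1.17 and Gabra4 at 3.499 ± 0.243 CPM per kb. Gabra6, a gene of cerebellar granule cells, was lowest at 0.0244 ± 0.0174 CPM per kb. Of the beta genes Gabrb2 (18 ± 1.17) stood above Gabrb1 (4.49 ± 0.732), and of the gamma genes Gabrg1 (3.86 ± 0.485) above Gabrg3 (2.16 ± 0.299 CPM per kb). The remaining GABA-A genes were low, with Gabrq at 1.32 ± 0.190, Gabrd at 0.671 ± 0.139 and Gabrp at 0.0105 ± 0.0154 CPM per kb. For GABA-B, Gabbr1 at 58.9 stood above Gabbr2 at 14.2 ± 1.27 CPM per kb. In 9 of the 12 classes the leader was the same gene with the longest coding transcript as the length, and the exceptions included NMDA and alpha, where Gabra5 then led.

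**Figure D2:**
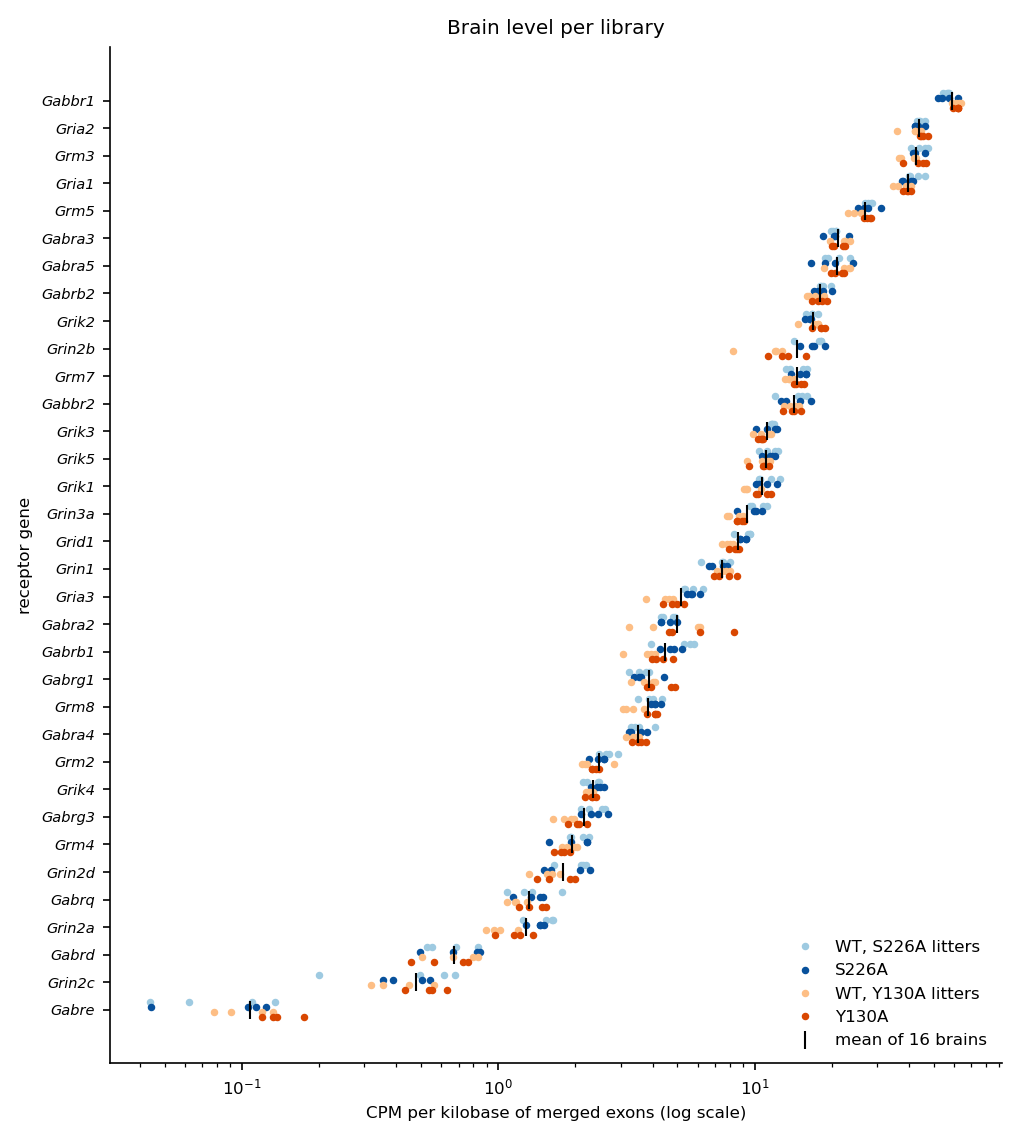
Level of 34 receptor genes in each of the 16 brain libraries, in CPM per kilobase of merged exons on a log axis. Each point is 1 library, coloured by genotype and litter set, and the tick is the mean of all 16. Genes run from Gabbr1 at the top, and for most genes the points of the 4 groups lie on top of each other.

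No receptor gene passed the test in either mutant brain. Of the 42 members with enough reads to test, 0 changed in S226A brain and 0 in Y130A brain by edgeR's quasi-likelihood test at adjusted p < 0.05, 0 and 0 had an unadjusted p under 0.05, and DESeq2 called 0 in either. Over all genes tested 0.243% changed in S226A brain and 0.00592% in Y130A brain, and 0 of 42 is close to both. By the study's stringent limits (adjusted p < 0.01, a change beyond 2-fold and a standard error under 1) the shares of all genes were 0.124% and 0%, with 0 members. In this bulk RNA fewer cells of a type and less RNA per cell cannot be told apart.

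The values show how close mutants and littermates were. Gria2 stood at 683, 715, 683 and 670 CPM in wild-type brains of S226A litters and at 659, 671, 657 and 716 CPM in S226A brains. In the Y130A litters it stood at 695, 657, 560 and 659 CPM in wild-type and at 739, 691, 686 and 703 CPM in Y130A brains. Mutant and wild-type libraries overlapped in both lines. Within litters Gria2 was higher in every Y130A brain than in its wild-type littermate, and the direction was mixed in the S226A litters. With litter as a block 0 members were called in either brain. Gabbr1 stood at 441, 421, 443 and 438 CPM in wild-type and 484, 418, 445 and 404 CPM in S226A brains, and at 456, 498, 475 and 486 CPM in wild-type and 461, 483, 482 and 481 CPM in Y130A brains, again with overlap.

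Among the 36 members over 5 CPM the log2 fold change in S226A brain ran from -0.12 (Grm2, SE 0.323, adjusted p = 1) to 0.08 (Grik4, SE 0.467, adjusted p = 1). In Y130A brain it ran from -0.10 (Grm4, SE 0.384, adjusted p = 1) to 0.29 (Gabra2, SE 0.207, adjusted p = 1). The 95% interval stayed within a 2-fold change for 35 of the 42 members in each line. Over all 42 members the extremes in each direction were, in S226A brain, Gabrr2 (23 reads over the 4 mutants against 36 over the 4 wild-types, log2 fold change -0.59) and Gabrp (3 against 0 reads), and in Y130A brain Gabrp (14 against 9 reads, log2 fold change 0.67, which turned to -0.61 without replicate 1 of the Y130A brains) and Gabrd (377 against 441 reads, -0.16).

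As a set, the 42 members had a median log2 fold change of -0.016 in S226A brain, with 15 higher and 27 lower, beside 0.0027 over all genes. It turned to 0.0138, with 23 higher and 19 lower, without replicate 2 of the S226A brains. In Y130A brain the median was 0.097, with 33 higher and 9 lower, beside -0.0012 over all genes, and it ran from 0.072 to 0.13 when each library was left out in turn. The libraries of mutant and wild-type did not overlap for 4 members in Y130A brain (Grm5, Grm7 and Grm8 among them) and for 0 in S226A brain, where 4.75% and 2.48% of all genes tested did so. These were higher in the mutants by 0.13 to 0.28 on the log2 scale, and none was called (adjusted p = 1 for each): Grm5, for example, stood at 272 to 291 CPM in Y130A and 236 to 268 CPM in wild-type brains. Summed markers overlapped between the groups, with 6 forebrain genes at 453 to 607 CPM in Y130A and 516 to 635 CPM in wild-type brains, and 10 neuronal genes at 7290 to 7660 and 7380 to 7930 CPM, and their part in that median was not tested. In S226A brain 6 genes of microglia and macrophages were lower, at 19.3 to 23.3 CPM against 51.5 to 59.3 CPM, and 4 of the 6 fell by the same test.

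**Figure D3:**
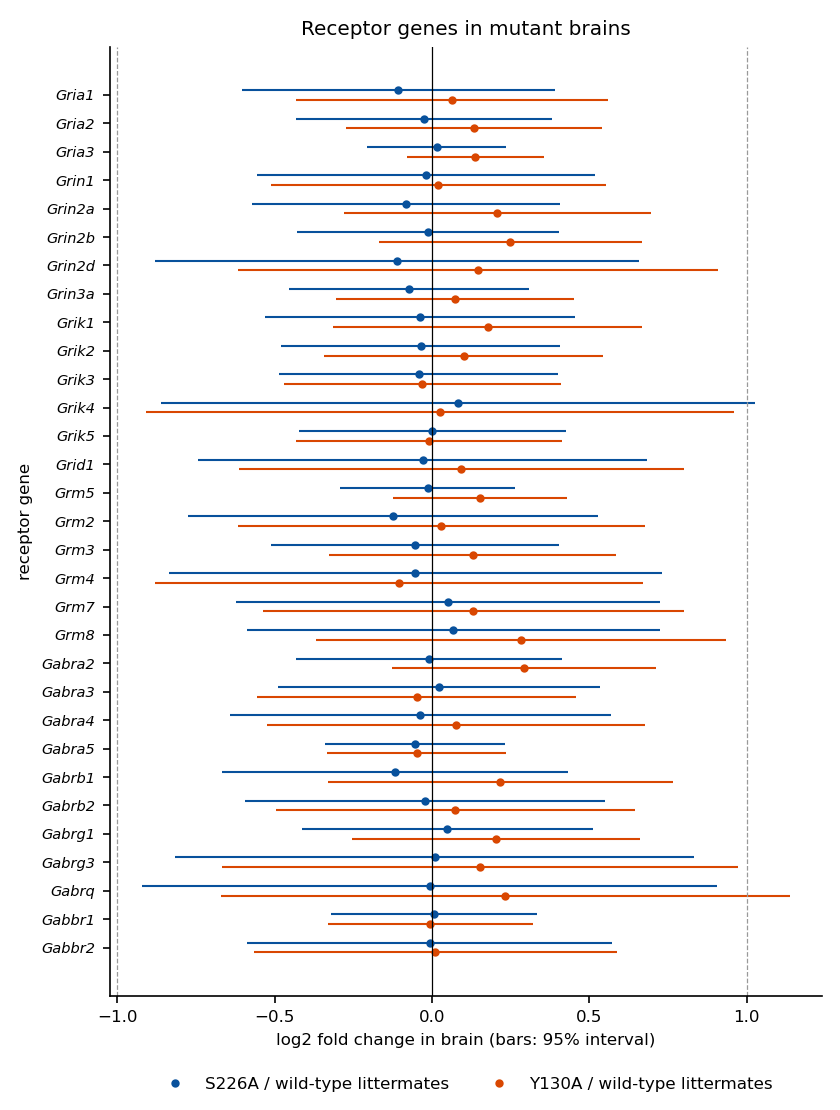
Log2 fold change between mutant and wild-type littermate brains (horizontal axis) for 31 receptor genes over 5 CPM, with points for the estimate and bars for the 95% interval, S226A and Y130A side by side. Every bar crosses 0, and nearly all lie within -1 and 1.

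The change in brain also did not differ between the 2 mutations for any member (0 called, 0 with an unadjusted p under 0.05, 0 by DESeq2; 0.0829% of all genes tested were called). The 30 partner genes of these receptors were auxiliary subunits and scaffolds such as the Cacng, Shisa and Neto families, Dlg and Homer genes. The receptor gene Gria4 was counted among them. Of the 30, 0 rose and 0 fell in either mutant brain, and the largest log2 fold changes were -0.20 (Cacng8) in S226A and 0.28 (Kctd16) in Y130A brain. The 18 genes that make and carry the transmitters were taken with the chloride importer gene Slc12a2 among them. Of these again 0 rose and 0 fell, with the largest at -0.18 (Slc17a7) in S226A and 0.15 (Slc1a2) in Y130A brain.

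Wild-type brains of the 2 litter sets, which carry no mutation, were compared to see how far the sets themselves differ. Gria3 was higher in the S226A litters (62.2, 52.2, 52.9 and 56.5 CPM) than in the Y130A litters (44.0, 45.8, 37.2 and 47.4 CPM), with no overlap, by a log2 fold change of 0.36 (adjusted p = 0.0390). It was 1 member of 42 called, where 5.98% of all genes tested were called. The call was lost without any 1 of 6 libraries (wild-type of S226A litters replicates 1, 3 and 4, of Y130A litters replicates 1, 2 and 3), with log2 fold changes of 0.292 to 0.385. Grin2b stood at 441, 354, 449 and 453 CPM against 300, 298, 205 and 317 CPM, again with no overlap, and was not called (0.60, SE 0.207, adjusted p = 0.0774). Fitted on those 8 libraries alone, 18 of 41 members tested were called where 24.8% of all genes were, all 18 higher in the S226A litters by 0.168 to 0.662 on the log2 scale. The sets differ in depth. With the Y130A litters thinned to the median total of the S226A litters 2 members and 4.75% of all genes were called. Line, parents, depth and any other difference between the sets cannot be told apart.

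Tissue was the main axis along which the receptor genes varied. In wild-type embryos 39 of the 42 members were higher in brain than in liver and 38 were higher in brain than in lung by the stringent limits, where 29.2% and 23.1% of all genes tested were. The members not called were Gabrr2, Gabrp and Gabre in both, and Gria3 against lung. Gria2 was higher in brain by a log2 fold change of 10.80 against liver and 10.53 against lung. Grik5, the kainate subunit that joins Grik1 to Grik3 subunits and does not work alone, was higher in brain by 1.78 against liver and 1.57 against lung. By mean level 41 members were highest in brain, 4 in lung (Gria3, Gabre, Gabrp and Gabrr2) and 1, Grm6, in liver, where no group mean passed 0.5 CPM.

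Lung had a receptor profile of its own, with 19 of 42 members higher in wild-type lung than in liver by the stringent limits, where 23.7% of all genes tested were. Per length the leading genes in the 15 lungs were Gria3 (5.23 ± 0.887 CPM per kb, SD, n = 15), Gabbr1 (4.99 ± 1.89), Grik5 (3.75 ± 1.90), Gabrp (3.28 ± 0.658), Gabre (1.36 ± 0.346) and Gria1 (1.08 ± 0.336 CPM per kb). The first 4 had overlapping ranges. Gria3 stood at about the same level in lung and brain, with a log2 fold change between wild-type brain and lung of 0.00 (SE 0.0793, adjusted p = 1), and higher in lung than in liver by 1.60 (SE 0.0829, adjusted p = 5.46e-21).

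Gabrp, whose subunit is known from epithelia rather than neurons, stood at 12.5, 16, 13.2 and 9.75 CPM in wild-type lungs of S226A litters and at 7.52, 8.08 and 9.56 CPM in those of Y130A litters. In brain it never passed 0.197 CPM. The log2 fold change between brain and lung was -9.63 (adjusted p = 1.32e-14), and lung was above liver by 4.69 (adjusted p = 1.07e-10). Gabre stood at 4.24 to 9.87 CPM in the 15 lungs and at 0.208 to 0.823 CPM in the 16 brains, a log2 fold change between brain and lung of -3.82 (adjusted p = 4.23e-12). Both genes were thus higher in lung than in brain in every library.

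Gabbr2 was higher in liver than in lung by a log2 fold change between lung and liver of -3.86 (adjusted p = 2.00e-09), although its partner Gabbr1 was higher in lung. No read of Gabra5 or Gabra6 was found in any lung, and none of Gabra6 in any liver, where 3 reads would have been 0.0796 to 0.216 CPM.

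**Figure D4:**
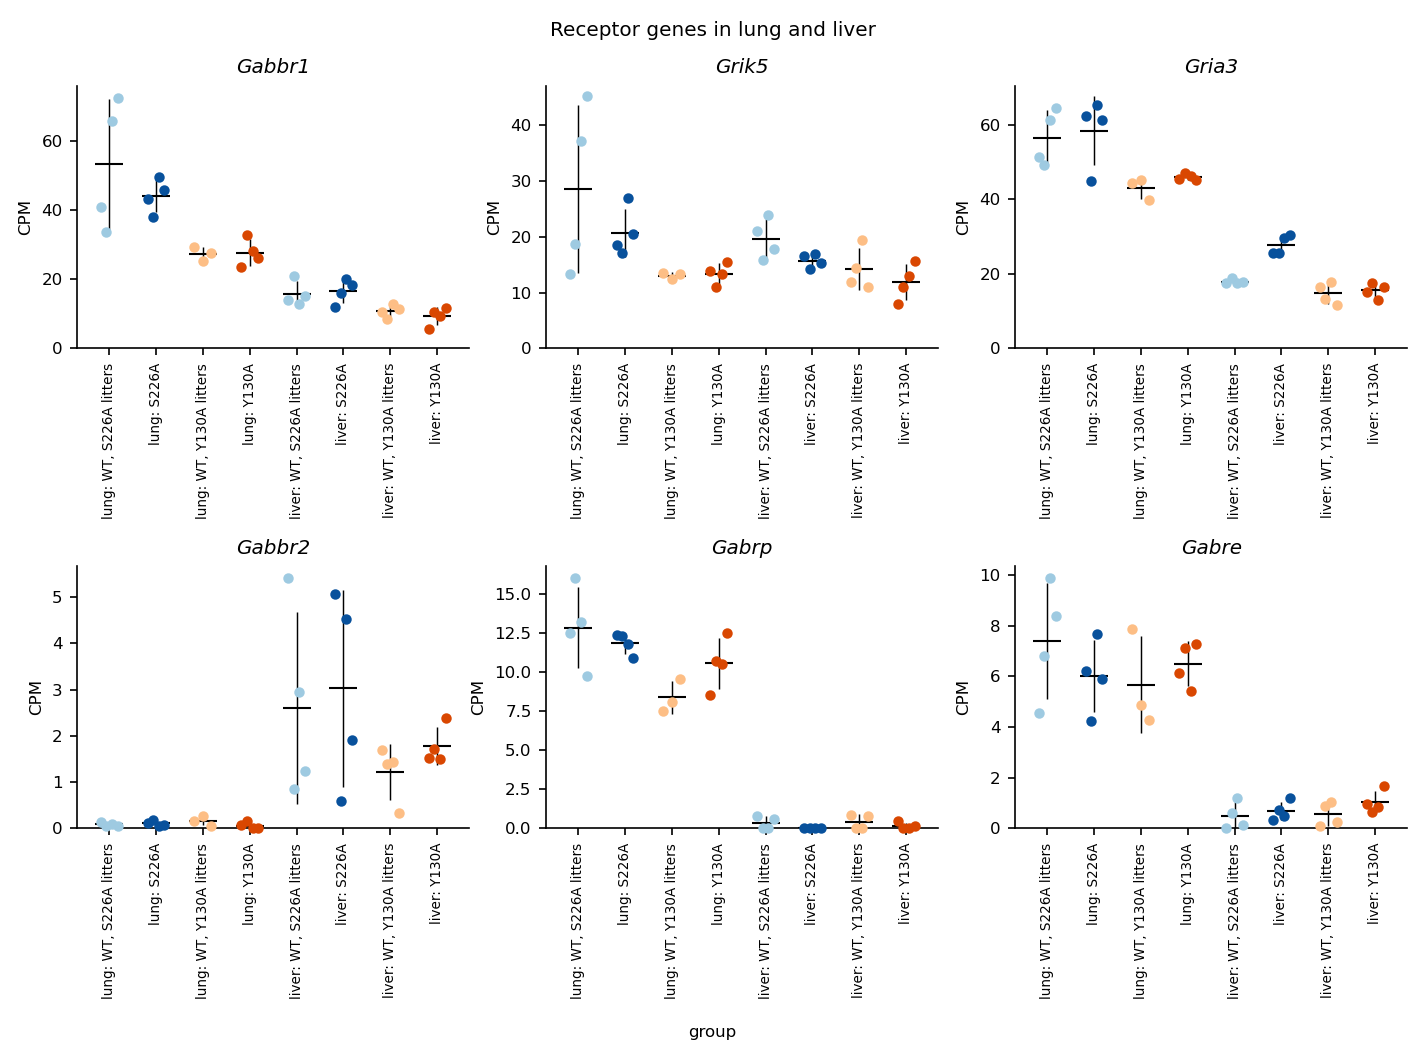
CPM of Gabbr1, Grik5, Gria3, Gabbr2, Gabrp and Gabre in each lung and liver library, by genotype and litter set, on axes that start at 0. Points are libraries, the long bar is the group mean and the thin line the SD, cut at 0. Gabrp and Gabre sit near 0 in liver and Gabbr2 sits near 0 in lung, while Gria3 in S226A liver, at 25.6 to 30.4 CPM, lies above every other liver.

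The 250 bases upstream of the starts show how unlike the promoters of these genes are. RefSeq upstream sequences were at hand for 31 of the 46 members with 38 starts, which held a median of 8.5 CpG beside 6 over 32851 promoters. They are shown for genes that the tissue and liver results turn on, on the strand of the gene in GRCm38.p6, with CpG in capitals.
Gria2 (brain): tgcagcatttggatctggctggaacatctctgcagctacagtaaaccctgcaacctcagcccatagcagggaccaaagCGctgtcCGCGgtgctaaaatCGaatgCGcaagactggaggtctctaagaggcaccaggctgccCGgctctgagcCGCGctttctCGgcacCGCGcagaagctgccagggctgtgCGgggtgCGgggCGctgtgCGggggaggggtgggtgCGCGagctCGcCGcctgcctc
Gabbr1 (all tissues): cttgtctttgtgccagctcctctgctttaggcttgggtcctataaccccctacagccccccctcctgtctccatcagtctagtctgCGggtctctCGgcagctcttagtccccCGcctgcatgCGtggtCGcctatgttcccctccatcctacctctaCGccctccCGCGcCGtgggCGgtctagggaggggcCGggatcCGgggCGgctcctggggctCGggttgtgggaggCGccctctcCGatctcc
Gabrp (lung): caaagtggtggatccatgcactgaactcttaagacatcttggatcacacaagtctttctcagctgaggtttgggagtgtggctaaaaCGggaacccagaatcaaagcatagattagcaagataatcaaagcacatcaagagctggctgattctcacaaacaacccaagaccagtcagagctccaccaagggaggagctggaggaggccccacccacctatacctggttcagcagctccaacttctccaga
Gabra3 (brain, changed in liver): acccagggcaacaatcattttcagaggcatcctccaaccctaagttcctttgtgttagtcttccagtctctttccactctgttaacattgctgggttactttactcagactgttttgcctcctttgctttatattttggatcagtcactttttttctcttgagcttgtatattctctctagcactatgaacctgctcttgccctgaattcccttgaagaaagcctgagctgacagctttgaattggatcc
Gabrq (neighbour of Gabra3): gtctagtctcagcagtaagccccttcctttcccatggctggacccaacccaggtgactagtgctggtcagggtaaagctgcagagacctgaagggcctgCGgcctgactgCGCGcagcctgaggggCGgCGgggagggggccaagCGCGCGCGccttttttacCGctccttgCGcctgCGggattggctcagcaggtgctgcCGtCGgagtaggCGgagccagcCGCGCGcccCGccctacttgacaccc

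They lie at chr3:80802836-80803085 (minus, Gria2), chr17:37045716-37045965 (plus, Gabbr1), chr11:33578958-33579207 (minus, Gabrp), chrX:72656920-72657169 (minus, Gabra3) and chrX:72824928-72825177 (plus, Gabrq). Gria2 and Gabrq held 19 CpG each and Gabbr1 16, whereas Gabrp held 1 and Gabra3 0. The GC box GGGCGG was found on either strand in 18 of the 38 starts, from 17 members, and in 32.7% of all promoters. The letters TATAAA were found on either strand in 4 of the 38 starts, of Gabra3 (as the reverse complement in the sequence above), Gabrb2 and Grin3b, and in 12.4% of all promoters. The 9-base core of the repressor element of neuronal genes, TTCAGCACC, searched on both strands, was found only upstream of Grm2, and in 0.301% of all promoters.

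In liver 1 member was called in each mutant, Gria3, which rose in S226A liver, and Gabra3, which rose in Y130A liver. Both genes lie on the X chromosome. Gria3 lies at chrX:41400854-41678601 (plus strand), and Gabra3 at chrX:72432681-72656848 (minus) between Gabre (chrX:72255999-72274803, minus) and Gabrq (chrX:72825178-72842602, plus), by the GRCm38 annotation. These are the 4 X-linked members. By the study's account each group of 4 was balanced with 2 males and 2 females, and sex was not a term of the fit.

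Gria3 stood at 17.6, 18.9, 17.5 and 17.7 CPM in wild-type livers of S226A litters and at 25.7, 25.6, 29.6 and 30.4 CPM in S226A livers. The mutants did not overlap the wild-types and were higher in 4 of 4 litters, by 1.36 to 1.72 times. The fold change was 1.55 (log2 fold change 0.63, SE 0.116, 95% interval 0.40 to 0.87, adjusted p = 0.000119). It was the only member of 42 called, where 11.7% of all genes tested were called, and it was under the 2-fold limit of the stringent criteria, by which 0 members and 2.1% of all genes changed. In a fit on the livers of these litters alone only 6 members had enough reads to test. Of those 1 was called, beside 8.28% of all genes. With litter as a block a second gene was called, so that the count was 2.

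In the Y130A litters Gria3 stood at 16.4, 13.2, 17.9 and 11.7 CPM in wild-type and at 15.2, 17.5, 13.1 and 16.6 CPM in Y130A livers. The groups overlapped, and the log2 fold change of 0.08 had an interval of -0.15 to 0.31 (adjusted p = 0.947), which lay below the S226A estimate. The difference between the 2 changes was 0.56 on the log2 scale (adjusted p = 0.0300), 1 call among 42 members where 5.9% of all genes tested were called. That call was lost in 9 of the alternative fits, among them a fit on the livers alone (0.57), without the 2 squamous livers (0.568), and without any 1 of 7 livers: wild-type of S226A litters replicate 3, S226A replicates 3 and 4, Y130A replicates 1 and 3, and wild-type of Y130A litters replicates 1 and 3. There the difference was 0.453 to 0.57 with adjusted p-values between 0.0501 and 0.124. Along with Gria3, 6 genes of microglia and macrophages moved in S226A liver, at 85.6 to 112 CPM against 322 to 366 CPM in wild-type, and 4 of the 6 fell. In Y130A liver they stood at 343 to 407 CPM against 375 to 432 CPM. Their part in the change of Gria3 was not tested.

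Gabra3, which with Gabra5 led the alpha genes in fetal brain, stood at 1.01, 0.521, 0.800 and 0.576 CPM in wild-type livers of Y130A litters (38, 15, 23 and 19 reads) and at 3.69, 1.76, 2.59 and 2.22 CPM in Y130A livers (125, 52, 73 and 68 reads). The mutants lay above all the wild-types and were higher in 4 of 4 litters, by 1.74 to 6.41 times. The fold change was 3.49 (log2 fold change 1.80, SE 0.366, 95% interval 1.06 to 2.54, adjusted p = 0.0130), 1 call among 42 members where 0.272% of all genes tested were called. In a fit on the livers of these litters alone only 15 members had enough reads to test. Of those 0 were called, beside 0.0349% of all genes. By the stringent limits 0 members and 0.077% of all genes changed. Even in Y130A liver Gabra3 was far below brain, where it stood at 72.4 to 92.1 CPM.

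The call rests on few reads and on single libraries. It was lost without Y130A replicate 1 (1.56, adjusted p = 0.0625), without wild-type replicate 2 (1.68, adjusted p = 0.0531), without wild-type replicate 4 (1.70, adjusted p = 0.0644) and in a fit on the 8 livers of these litters alone (1.81, adjusted p = 0.475). Y130A replicate 1, the highest at 3.69 CPM, is 1 of the 2 livers with squamous transcripts. Without both of those livers the change was 1.56 (adjusted p = 0.0285).

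In the S226A litters Gabra3 stood at 0.246, 1.64, 0.359 and 0.306 CPM in wild-type (4, 25, 5 and 5 reads) and at 1.38, 1.20, 0.928 and 3.25 CPM in S226A livers (21, 26, 15 and 49 reads). The mutants were higher in 3 of 4 litters and were not called (1.38, SE 0.493, adjusted p = 0.0611). The wild-type at 1.64 CPM is the other squamous liver. Without the 2 squamous livers Gabra3 was called in S226A liver too (2.44, adjusted p = 0.00307), as it was with litter as a block (1.37, adjusted p = 0.0414), without S226A replicate 3 (1.57, adjusted p = 0.0419) and by DESeq2 (1.40, adjusted p = 0.0112). Whether the change of Gabra3 differs between the mutations was tested directly and was not shown (-0.42, interval -1.72 to 0.87, adjusted p = 0.836).

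The neighbours of Gabra3 were scarcer. Gabrq stood at 0.319, 0, 0 and 0.121 CPM in wild-type and 0.325, 0.237, 0.461 and 1.04 CPM in Y130A livers (16 and 63 reads in sum), the largest positive log2 fold change of any member in that comparison at 2.07 (SE 0.664). It was not called (adjusted p = 0.196), but was called by DESeq2 (2.15, adjusted p = 0.0301) and without wild-type replicate 1 (3.45, adjusted p = 0.0459). Gabre stood at 0.0796, 0.902, 1.04 and 0.273 CPM in wild-type and 0.974, 0.642, 0.850 and 1.69 CPM in Y130A livers, with overlap (0.89, adjusted p = 0.672). In S226A litters neither gene separated the groups: Gabrq stood at 0.245 to 0.657 CPM in wild-type and 0.231 to 1.49 CPM in S226A livers, and Gabre at 0 to 1.22 and 0.329 to 1.19 CPM.

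**Figure D5:**
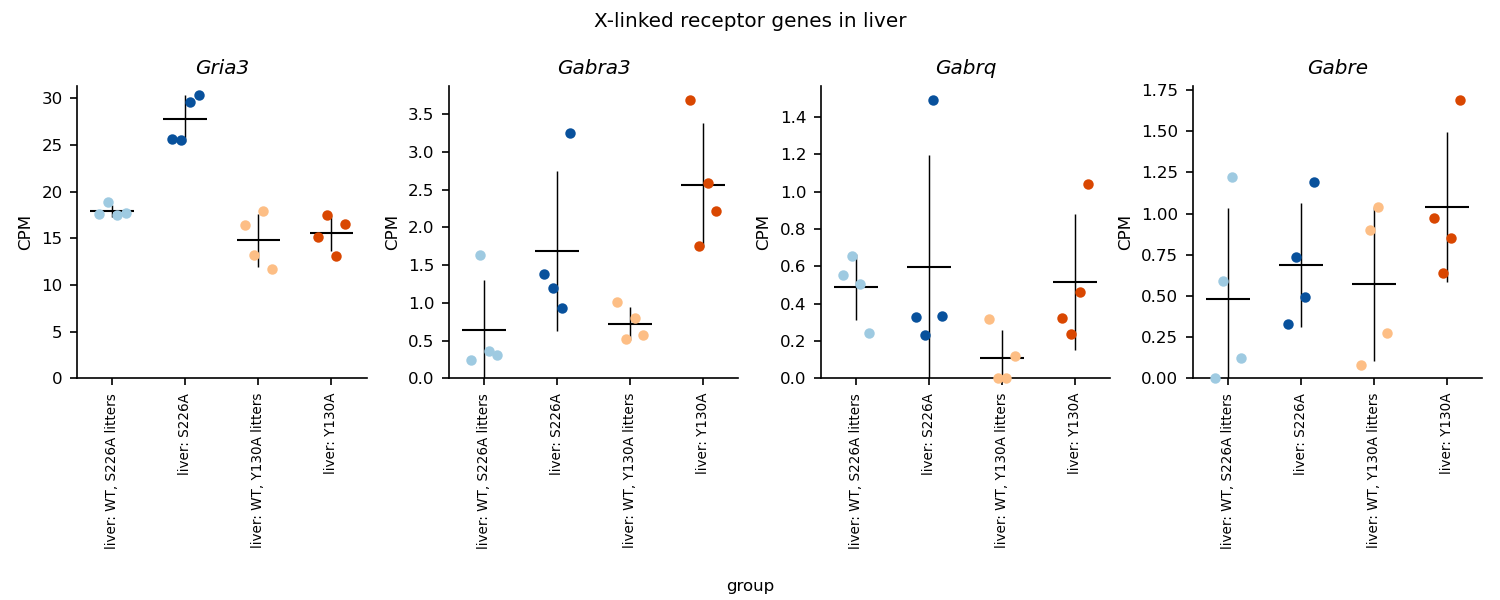
CPM of the X-linked receptor genes Gria3, Gabra3, Gabrq and Gabre in each of the 16 livers, by genotype and litter set, on axes that start at 0. Points are libraries, the long bar is the group mean and the thin line the SD, cut at 0. Gria3 separates S226A from wild-type livers, and Gabra3 separates Y130A from wild-type livers, at 1.76 to 3.69 CPM.

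A total of 13 members averaged over 0.5 CPM in at least 1 liver group. Besides Gria3 the abundant ones were Grik5 and Gabbr1. Grik5 led per length at 2.98 ± 0.783 CPM per kb (SD, n = 16), over Gria3 at 1.93 ± 0.579 and Gabbr1 at 1.69 ± 0.536 CPM per kb. Grik5 stood at 21.1, 15.9, 24.0 and 17.8 CPM in wild-type and 16.5, 14.2, 16.9 and 15.4 CPM in S226A livers (log2 fold change -0.33, SE 0.224, adjusted p = 0.398), and at 11.9, 14.5, 19.5 and 11.0 CPM in wild-type and 8.03, 11.1, 13.0 and 15.6 CPM in Y130A livers (-0.25, SE 0.219, adjusted p = 0.853). Gabbr1 stood at 12.7 to 21 CPM in wild-type and 12 to 19.9 CPM in S226A livers, and at 8.57 to 12.9 CPM in wild-type and 5.70 to 11.6 CPM in Y130A livers. For both genes the mutants overlapped the wild-types in each line.

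The other 9 had group means of at most 3.03 CPM, among them Gabbr2 at 1.21 to 3.03, Grin2c at 0.805 to 1.35, Gabre at 0.484 to 1.04, Grik4 at 0.446 to 0.843, Grid1 at 0.52 to 0.688, Grin2d at 0.283 to 0.678, Grin2b at 0.175 to 0.81 and Gabrq at 0.11 to 0.594 CPM. None of them was called in the main fit, though some were called under alternatives. DESeq2 called Grin2b in S226A liver (-1.53, adjusted p = 0.034). For the difference between mutations Grin2b was called by DESeq2 (-2.71, adjusted p = 0.00692) and with litter as a block (-2.68, adjusted p = 0.0468). Further members with large fitted changes rested on a handful of reads and get no fold here: in S226A liver Grin1 (6 reads in 1 mutant and 0 in the wild-types) and Gabrp (1 against 23 reads, adjusted p = 0.0875), and in Y130A liver Gabra4 (0 against 11 reads, adjusted p = 0.263). In liver the 95% interval stayed within a 2-fold change for only 3 of the 42 members, so for most of the others that were not called a 2-fold change was not excluded.

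In S226A liver 6 members had an unadjusted p under 0.05 and in Y130A liver 7. No share of all genes was taken at that limit, so these counts cannot be read as an excess. The 10 neuronal marker genes summed to 17.9 to 23.7 CPM in Y130A and 19.5 to 27.6 CPM in wild-type livers, and to 11.8 to 21.5 CPM in S226A and 17.4 to 25.6 CPM in wild-type livers, and 0 of 10 rose in either comparison, while 1 of 10 fell in S226A liver. Their part in the change of Gabra3 was not tested.

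Partners of the receptors were also called in liver. Of the 30 partner genes 3 rose and 3 fell in S226A liver, where 11.7% of all genes tested were called. Those that rose were the fourth AMPA gene Gria4 (1.71 to 3.34 CPM against 0 to 1.05 CPM in wild-type, log2 fold change 2.16, adjusted p = 1.79e-05) and both kainate receptor auxiliary genes, Neto2 (2.52 to 4.41 against 0.368 to 2.17 CPM, 1.36, adjusted p = 0.000155) and Neto1 (1.98 to 3.69 against 0 to 2.80 CPM, 1.40, adjusted p = 0.0494). Gria4 is itself a receptor subunit, and the study had already named it among genes raised in both mutant livers. Among those that fell were the scaffold genes Dlg2 (-0.80, adjusted p = 0.0499) and Homer1 (-0.35, adjusted p = 0.00907). In Y130A liver, where 0.272% of all genes tested were called, only Gria4 was called among the 30 (2.06 to 3.65 against 0.625 to 1.11 CPM, 1.92, adjusted p = 1.11e-05). Neto1 stood there at 1.98 to 2.10 against 0.239 to 1.08 CPM without passing the test (1.73, adjusted p = 0.0750). The change of Neto2 differed between the mutations (1.496, adjusted p = 0.00292), and that of Gria4 was not shown to differ (0.24, adjusted p = 0.888).

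Of the 18 transmitter genes 4 fell and 1 rose in S226A liver, and 0 were called in Y130A liver, beside 11.7% and 0.272% of all genes tested. The glutamate transporter gene Slc1a2, which is also used by hepatocytes, stood at 0 to 0.416 CPM in S226A and 2.15 to 3.88 CPM in wild-type livers (-3.79, adjusted p = 3.49e-07). Slc1a3, a second glutamate transporter gene, fell by 0.96 on the log2 scale (adjusted p = 0.0282), and the chloride importer gene Slc12a2 fell by 0.80 (8.09 to 9.29 against 14.3 to 16.3 CPM, adjusted p = 1.32e-08). The GABA transporter gene Slc6a11 (at most 0.0462 against 0.123 to 0.983 CPM, adjusted p = 0.0152) fell and the vesicular GABA transporter gene Slc32a1 (0 to 1.78 against at most 0.0719 CPM, adjusted p = 0.0224) rose, both at levels of a few reads. For Slc1a2, Slc1a3, Slc12a2 and Slc6a11 the change also differed between the mutations.

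No receptor gene passed the test in either mutant lung. Of 42 members 0 were called in S226A lung (4 with an unadjusted p under 0.05, 0 by DESeq2) and 0 in Y130A lung (6 with an unadjusted p under 0.05, 0 by DESeq2), where 1.88% and 0.0178% of all genes tested were called. Fitted on only the lungs compared, 24 members in S226A and 29 in Y130A lung had enough reads to test, and 0 were called. The shares of all genes were then 0.232% and 0%. By the stringent limits the shares of all genes were 0.302% and 0%, with 0 members. The change differed between the mutations for 0 members (4 with an unadjusted p under 0.05, 2 by DESeq2, 0.308% of all genes). No share of all genes was taken at the unadjusted limit, so the counts under it cannot be read as an excess. The 95% interval stayed within a 2-fold change for 10 of the 42 members, and for the other 32 a 2-fold change was not excluded.

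Among the abundant lung members, Gria3 stood at 51.5, 49.1, 61.3 and 64.4 CPM in wild-type and 62.3, 45.0, 65.4 and 61.2 CPM in S226A lungs, and at 44.5, 45.1 and 39.7 CPM in wild-type and 45.4, 47, 46.3 and 45.2 CPM in Y130A lungs. Gabrp stood at 12.4, 12.3, 11.8 and 10.9 CPM in S226A lungs and 8.56, 10.7, 10.5 and 12.5 CPM in Y130A lungs, which overlapped the wild-type values above. Among the 6 members over 5 CPM the log2 fold change ran from -0.46 (Grik5) to 0.18 (Gria1) in S226A lung and from -0.02 (Gria1) to 0.33 (Gabrp) in Y130A lung.

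Grik5 and Gabbr1 varied between wild-type lungs of S226A litters. Grik5 stood at 13.3, 18.7, 37.2 and 45.2 CPM in wild-type lungs of S226A litters, where replicates 3 and 4 were high, and at 18.6, 17.1, 26.9 and 20.5 CPM in S226A lungs. The log2 fold change of -0.46 (SE 0.217, adjusted p = 0.284) became -0.695 (adjusted p = 0.0310) without wild-type replicate 1, the lowest. Wild-type replicate 4 is probably the lung that the study named a possible outlier for its repeat elements. Gabbr1 stood at 40.7, 33.7, 65.7 and 72.4 CPM in wild-type and 43.1, 38.0, 49.5 and 45.7 CPM in S226A lungs, with the same 2 wild-type libraries high. Gabra3 in Y130A lung, at a group mean of 2.74 CPM against 1.55 CPM, had a log2 fold change of 0.83 (SE 0.332) and was not called (adjusted p = 1).

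The extremes among the fitted changes in lung rested on few reads. In S226A lung these were Grm7 (43 against 59 reads, -0.59) and Grm3 (4 against 0 reads), and in Y130A lung Gabrg1 (9 against 0 reads) and Grm2 (0 against 5 reads), and none was called. Of the 30 partner genes and of the 18 transmitter genes 0 were called in either mutant lung.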

How the data were processed

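RNA-seq reads of 47 libraries were, per the labels and the study's methods, trimmed with Trim Galore 0.6.5, checked with FastQC 0.11.5 and aligned with STAR 2.6.0b to GRCm38 with GENCODE annotation. The authors deposited the raw read count per gene that STAR wrote, and the strand setting is not given in the sources used here. Samples were grouped by the labels. Genes passing edgeR's filter (minimum count 10, minimum total 15; 16892 genes, 42 members) were normalised by TMM and fitted in edgeR 4.0.16 (R 4.3.3) by the quasi-likelihood test with 1 coefficient per group over all 47 libraries. Adjusted p-values are Benjamini-Hochberg over all genes, and standard errors come from the log2 fold change and F. Gabra6, Gabrr3, Grm6 and Grin3b did not pass the filter. CPM uses the TMM library sizes, and levels per kb use merged exons of a later GENCODE release of GRCm38 than the authors used. The floor of 3 reads covers counting error only.

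The members and the gene lists were chosen with earlier results of these data known. Named with full values were members called in any mutant comparison, the highest and lowest of each class in brain, the largest change in each direction per comparison, and members over 0.5 CPM in liver or lung; the genes without overlap in Y130A brain were named after their values were seen. Some members and partner genes are not reported here by name, though counts over the members and lists include them.

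The 3 or 4 replicates of a group are separate embryos from different litters. Littermates deviated together from their group means (correlation over 0.1 in 18 of 23 mutant and wild-type pairs, median 0.213, against 5 of 69 other pairs), and the pairing comes from the litters in the labels and methods. The 69 replicate pairs all differed beyond sampling noise (lowest chi-square per degree of freedom 4.09). The code was tested on simulated data. Alternatives were DESeq2 1.42.0, other size factors, no filter, a fit on only the libraries compared, litter as a block, other limits, thinned counts and leaving out libraries.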

Additional observations from a re-analysis of the deposited data

Results flagged for a closer look

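The change of Gria3 in liver differed between the mutations, by 0.555 on the log2 scale, in the test of the difference itself. That call was lost in 9 of the alternative fits. Single libraries also stood far from the other 3 of their group in 18 of 208 gene and group pairs, by the gap over the range, and chance flags about 1 in 20 such groups. That rate assumes a normal spread, whereas a group with reads in only 1 library is always flagged. Values are CPM.

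In wild-type livers of S226A litters, replicate 2, the liver with squamous transcripts, stood apart for Gabra3 (1.64 against 0.246 to 0.359), Gria3 (18.9 against 17.5 to 17.7) and Grik4 (1.84 against 0.144 to 0.43), and replicate 1 for Grin2c (1.90 against 0.394 to 0.49). In wild-type livers of Y130A litters, Grin1 was 0.319 in replicate 1 and 0 in the others. In S226A livers, Grin1 was 0.395 in replicate 1 and 0 in the others, and Gabrq was 1.49 in replicate 3 against 0.231 to 0.332. In Y130A livers, replicate 3 stood apart for Grin2c (1.52 against 0.811 to 0.915) and Grid1 (1.74 against 0.261 to 0.384).

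In brain, replicate 2 of the wild-types of S226A litters was low for Grin2b (354 against 441 to 453) and Grid1 (49.4 against 56.3 to 57.2). In wild-types of Y130A litters Grm2 was 13.9 in replicate 4 against 10.4 to 10.9, and Grm6 was 0.125 in replicate 3 and 0 in the others. In Y130A brains Gabbr1 was 461 in replicate 1 against 481 to 483, and Grin3b was 0.0407 in replicate 4 against 0.187 to 0.216. In lung, Gabrb2 was 3.37 in replicate 2 of the wild-types of S226A litters against 0.851 to 1.22, and in Y130A replicate 3 Gabrg1 was 0.187 (at most 0.0167 in the others) and Gabrg3 was 2.38 (0.276 to 0.534).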

How the results depend on the processing

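No member was called in either mutant brain under any alternative. Counts of called members that moved by over 1.5 times were as follows, and between tissues lung over liver ran from 15 of 28 tested (only the libraries compared) to 23 of 42 (DESeq2). DESeq2 gave 5 in S226A liver (15.2% of all genes), 4 in Y130A liver (1.8%), 5 for the difference between mutations in liver (8.75%), 2 for it in lung (1.11%) and 5 between wild-type brains of the litter sets (8.88%). DESeq2 size factors in edgeR gave 2, thinning the Y130A litters (chosen after seeing the data) 2, and a fit on only the libraries compared 18 between those brains. The fit on only the libraries compared gave 0 in Y130A liver and 0 for the difference in liver. With litter as a replicate block 2 were called in S226A liver (13.2% of all genes) and 3 for the difference in liver (7.11%), and the block changed no other count by over 1.5 times. The stringent limits gave 0 in both livers, and 0 for the difference in liver. Without the 2 squamous livers (chosen after seeing the data) 3 were called in S226A liver (11% of all genes), with Gabra3 and Gabrp added.

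Leaving out 1 library at a time gave 1 to 2 calls in S226A liver, 0 to 2 in Y130A liver, 0 to 2 for the difference in liver, 0 to 1 in S226A lung, 0 to 1 for the difference in lung and 0 to 1 between the wild-type brains. These are counts only, and the share of all genes called in each of those fits is not given here. At adjusted p < 0.05 Gria3 in S226A liver was called in 14 of 14 alternative fits (0.59 to 0.672, adjusted p 1.33e-05 to 0.00295). Without S226A brain replicate 2 the median over the members in S226A brain turned to 0.0138. Signs also turned for Gabrp in Y130A brain (-0.615 without Y130A replicate 1, up to 1.09 without replicate 3 and to 1.26 over all alternatives) and Gria3 in Y130A liver (-0.0194 without wild-type replicate 4, up to 0.182 without replicate 3). The cause of these shifts was not tested. Low levels limit liver, where 3 of the 46 members averaged over 5 CPM.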
